A study of Gallus gallus with 6 samples.

Results

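The calcium pump genes described here are ATP2B2, ATP2A3 and ATP2C2, which were found by name in the authors' deposited table of 616 DEGs and joined by Ensembl identifier to the tables of counts and RPKM values. They are 3 of the 19152 genes measured. RNA-seq was carried out on the uterus, the part of the oviduct in which the eggshell is made, from 3 layers and 3 non-layers, all Hy-line hens, with 1 library per hen. Layers were laying hens of 35 weeks whose egg was at the stage of active shell calcification. They were sampled while the egg was in the uterus. Their times since ovulation lay within a window several hours wide, and the time of each layer was not given. Non-layers were hens of 35 to 60 weeks without growing follicles in the ovary, and the age of each non-layer was not given, so that age and laying status cannot be told apart for every hen. Because a gene had to be called by the authors on these same libraries to be named in their table, the difference of the 3 pumps between layers and non-layers is given below as size and error and is not independent evidence of a difference. The comparison asks how much mRNA of each pump the uterus held during shell formation, in which hens, and in what proportion to the other pumps.

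Calcium-transporting ATPases use ATP to move calcium ions against their gradient, and each class works at its own membrane. Pumps of the plasma membrane (PMCA) export calcium from the cell, pumps of the sarcoplasmic and endoplasmic reticulum (SERCA) return it from the cytosol to the reticulum, and pumps of the secretory pathway (SPCA) carry calcium and manganese into the Golgi. In the uterus of a hen, epithelial cells take up calcium from the blood and release it into the fluid around the egg, and plasma membrane pumps are known for the export step at the luminal side.

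ATP2B2 (ENSGALG00000030908, chromosome 12 of Galgal 5.0, 3752214 to 4001595, plus strand) encodes a pump of the plasma membrane type and has 3 annotated transcripts. ATP2A3 (ENSGALG00000001564, chromosome 19, 3247312 to 3281243, plus strand) encodes a pump of the reticulum type, known in mammals from epithelial and blood cells, and has 1 annotated transcript. ATP2C2 (ENSGALG00000035743, chromosome 11, 16970803 to 16992524, plus strand) encodes a pump of the Golgi and secretory pathway, known in mammals from secretory epithelia, and has 2 annotated transcripts. The paper reports qPCR of these mRNAs in laying, molting and non-laying hens. There, ATP2C2 alone of the 3 pumps changed significantly between groups, with its highest level while the egg was in the magnum. The oligonucleotides that the study designed for this qPCR are printed here 5′ to 3′. They name the stretch of each transcript by which its level can be measured apart from these libraries. Their position within the gene was not mapped here, and no qPCR value is used.
ATP2B2 forward: tgtgcactatgttcatgactga
ATP2B2 reverse: cactccattcaccacttccc
ATP2A3 forward: ctcatcttccaagtgacccc
ATP2A3 reverse: tactgtcctgagaatcccctc
ATP2C2 forward: acttggcagcaggtaacac
ATP2C2 reverse: cactcctggctctcctctt

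Gene counts per library lay between 14756666 and 20333103. The 10 genes with the most counts took 15.3% to 16.2% of the counts in layers and 7.22% to 8.42% in non-layers, so the share left for all other genes was lower in layers. The CPM values used here are counts scaled to a library size adjusted by TMM, which takes most genes as unchanged between libraries. The deposited RPKM values are per kilobase of gene and have no such adjustment. With library size alone, all genes had a median log2 fold change of -0.33, against 0.01 after TMM. The second value follows from what TMM assumes, so it does not show which scale is right. The part of the 10 top genes in this shift was not tested. Levels of a gene between hens are therefore given as CPM with RPKM beside it, and levels of different genes are compared only as RPKM. Each pump had at least 1740 counts in every library, and the counting error of a single value was between 0.639% and 2.40%. This counting error was below the spread between hens in both groups for ATP2B2 and ATP2C2, but the 3 non-layers hardly differed in ATP2A3 and their spread there was close to it. The libraries are of whole uterine tissue, in which fewer cells of a type and less RNA per cell cannot be told apart. Markers of epithelium, smooth muscle, leukocytes and endothelium, a list of 8, 10, 8 and 4 genes, had no name in the authors' table, and their levels were not analysed here.

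ATP2B2, the plasma membrane pump, was up-regulated in the uterus of all 3 layers. Its expression was 646, 1208 and 617 CPM in layers 1, 2 and 3, against 148, 190 and 90.7 CPM in non-layers 1, 2 and 3. Every layer lay above every non-layer, with layer 2 the highest and layers 1 and 3 close together. The deposited RPKM values gave the same picture, 149, 256 and 133 in layers against 40.5, 50.9 and 26.4 in non-layers. The group means were 824 ± 333 CPM in layers, against 143 ± 49.8 CPM in non-layers (SD, n = 3 each), which is a 5.77-fold difference. On the log2 scale the change was 2.53 ± 0.38 (SE), and the quasi-likelihood test of edgeR gave a Benjamini-Hochberg adjusted p of 0.033. A gene was called where its adjusted p was below 0.05 and its change reached 2-fold. ATP2B2 was the 1 pump of the 3 that met this rule, by which 0.901% of the 13317 genes tested were called higher in layers. This call held without layer 3 (adjusted p = 0.039 by edgeR) and without non-layer 3 (0.045), but not without layer 1 (0.069), layer 2 (0.099), non-layer 1 (0.17) or non-layer 2 (0.098), and the log2 fold change stayed between 2.14 and 2.79 in these 6 fits. Over all genes, 273 were called without layer 3 and 274 without non-layer 3. Only 41 were called without layer 1, 2 without layer 2, 0 without non-layer 1 and 1 without non-layer 2. With all libraries 249 genes were called, so the loss of the call was shared by most of them. Without layer 1, ATP2B2 was not among the 41 genes still called.

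ATP2A3, the pump of the reticulum, differed above all between the layers themselves. It was at 375, 1700 and 157 CPM in layers 1, 2 and 3, against 117, 125 and 115 CPM in non-layers 1, 2 and 3. Layer 2 was 4.54-fold above layer 1 and 10.8-fold above layer 3, while the highest non-layer was 1.09-fold above the lowest. Layer 3 was 1.32-fold above the mean of the non-layers on the CPM scale and 1.03-fold above it by RPKM, where it had 35.4 against 33.6, 35.0 and 34.8 in the non-layers. The groups did not overlap on either scale, but on the RPKM scale this rests on a gap between layer 3 and the highest non-layer that is smaller than the counting error of layer 3. The group means were 744 ± 835 CPM in layers, against 119 ± 5.16 CPM in non-layers (SD, n = 3 each). Although the log2 fold change of 2.64 was the largest of the 3 pumps in this fit, its standard error was 0.79, and it did not meet the rule (edgeR, adjusted p = 0.13). Without layer 2 the log2 fold change was 1.16, that is 2.23-fold in place of 6.25-fold, with an adjusted p of 0.19 by edgeR, and without layer 3 it was 3.13 with an adjusted p of 0.057. Tested with limma on log2(RPKM + 1), ATP2A3 was at 1.60, or 3.04-fold, which is below the 2.15 of ATP2B2 in that fit. DESeq2's Wald test called ATP2A3 (log2 fold change 2.67, adjusted p = 0.0022), as it did 3.1% of the genes it gave an adjusted p in the direction of layers. The authors had called their DEGs with DESeq2 on these same libraries, so this call was nearly fixed in advance and gives no separate support. The counts of ATP2A3 were fractions in all 6 libraries, as can arise when reads are shared out between genes. This was the case for 1026 genes, the counts of the other pumps were whole numbers, and why those of ATP2A3 were fractions was not tested.

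ATP2C2, the pump of the Golgi, had its highest value in another hen. It was at 451, 294 and 1037 CPM in layers 1, 2 and 3, against 177, 242 and 226 CPM in non-layers 1, 2 and 3. Here layer 3 was the highest and layer 2 the lowest of the layers, the reverse of their places for ATP2A3. On the CPM scale every layer lay above every non-layer, but the RPKM values were 150, 90.2 and 324 in layers against 70.1, 93.8 and 94.9 in non-layers, so that layer 2 fell inside the range of the non-layers. The counts without any scaling also overlapped, with 4234 in layer 2 and 4909 in non-layer 2. The group means were 594 ± 391 CPM in layers, against 215 ± 34.0 CPM in non-layers (SD, n = 3 each). Its log2 fold change of 1.47 ± 0.44 (SE) did not meet the rule either (edgeR, adjusted p = 0.13). The Wald test of DESeq2 did call the gene (log2 fold change 1.49, adjusted p = 0.013), but DESeq2 was also the method of the authors' call. Without layer 3 the log2 fold change was 0.80, or 1.74-fold, which is under the 2-fold threshold. The beta-globin gene HBBA, which marks red blood cells, was also highest in layer 3, with 82.2, 58.3 and 387 CPM in layers 1, 2 and 3 against 53.3, 54.3 and 44.1 CPM in non-layers. HBBA is the 1 gene of a list of 6 red blood cell markers that had a name in the authors' table of DEGs. The part of blood in the ATP2C2 value of layer 3 was not tested. In the RefSeq annotation of another assembly, GRCg7b, ATP2C2 overlaps TLDC1 and ATP2B2 overlaps a pair of loci without a gene name. The strands of these overlapping genes were not compared here. The libraries were made with a stranded kit, but the strand setting of the counting was not given in the sources used here. Whether reads of overlapping genes are included in these counts was not tested.

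**Figure D1:**
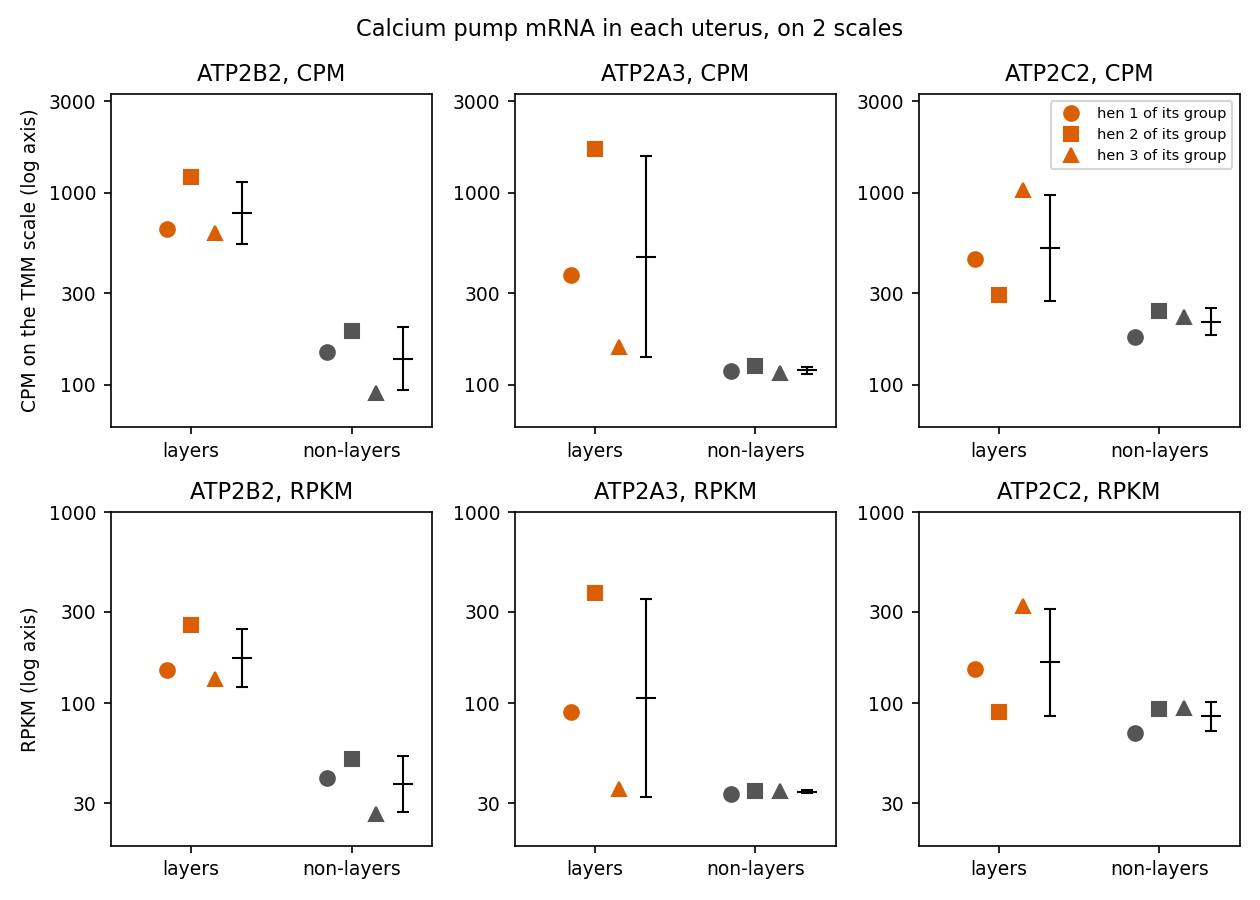
Expression of the 3 calcium pumps in each library, on log axes. Upper panels give CPM on the TMM scale and lower panels deposited RPKM. Each point is 1 hen, with the marker shape giving its number within its group (no pairing of hens by number was given). Black bars are the mean ± SD of the log2 values. ATP2B2 is above every non-layer in all 3 layers, ATP2A3 spans 157 to 1700 CPM in layers with layer 2 on top, and ATP2C2 peaks at 1037 CPM in layer 3, with layer 2 inside the non-layer range by RPKM.

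Setting the groups side by side, all 3 pumps had every layer above every non-layer on the CPM scale, as did 12.1% of the genes tested, and 2 of the 3 did so by RPKM, as did 3.81% of the genes tested. The members were named by the authors' own call of this contrast, so nothing is read from these shares. The spread among the hens of a group is given as a description too, since genes called in this contrast can differ from others in it. The SD of log2 CPM among the layers was 0.54 for ATP2B2, 1.74 for ATP2A3 and 0.92 for ATP2C2, against medians over 13257 genes with a count in every library of 0.334 in layers and 0.22 in non-layers. Among the non-layers the SD was 0.54 for ATP2B2, 0.06 for ATP2A3 and 0.24 for ATP2C2. ATP2B2 thus varied equally in both groups, whereas ATP2A3 and ATP2C2 varied more among the layers, as did 67.5% of all these genes and 76.5% of the 119 that edgeR called higher in layers. Those 119 genes had a median SD of 0.379 in layers and 0.206 in non-layers. ATP2A3 was above 98.4% of the genes in its spread among layers and above 8.98% in its spread among non-layers, and 1 other gene had a spread at least as large in layers together with one at least as small in non-layers. For ATP2C2 the spread was above 90.0% of the genes in layers and above 53.8% in non-layers. For ATP2B2 it was above 72.75% in layers and above 84.3% in non-layers, so its non-layers also varied more than those of most genes. These percentages were taken over genes of all levels and were not matched for counts. Genes with few counts have a larger counting error, which adds to their spread. The dispersion that edgeR estimated, as a coefficient of variation between hens, was 0.33 for ATP2B2, 0.62 for ATP2A3 and 0.39 for ATP2C2, where the trend at their levels was 0.27.

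**Figure D2:**
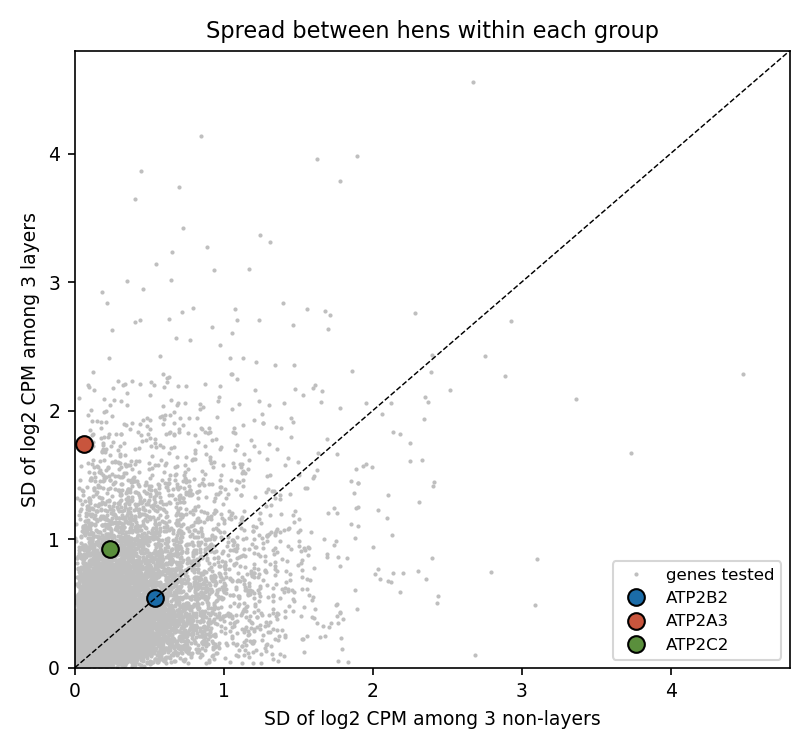
SD of log2 CPM among the 3 layers (vertical axis) against that among the 3 non-layers (horizontal axis) for genes tested with a count in every library (grey points), with the 3 pumps in colour and the dashed line at equal spread. ATP2B2 lies on the line at 0.54, ATP2A3 far above it at 1.74 against 0.06, and ATP2C2 above it at 0.92 against 0.24.

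The hen that contributed most to the layers' mean was a different one for ATP2C2 than for the other 2 pumps. Layer 2 supplied 76.2% of the summed CPM of ATP2A3 in layers, layer 1 supplied 16.8% and layer 3 supplied 7.04%. For ATP2B2 the share of layer 2 was 48.9%, with 26.1% in layer 1 and 25.0% in layer 3. For ATP2C2 layer 3 supplied 58.2%, layer 1 supplied 25.3% and layer 2 supplied 16.5%. A highest layer at least 4.54-fold above the next, as for ATP2A3, was found for 1.06% of all genes, one at least 2.30-fold above, as for ATP2C2, for 5.16%, and one at least 1.87-fold above, as for ATP2B2, for 9.56%. Layer 2 was the highest layer for 28.2% of all genes and layer 3 for 39.4%. Among the 119 genes that edgeR called higher in layers and that had a count in every library, layer 2 was the highest for 47.1% and layer 3 for 28.6%. The order layer 2, layer 1, layer 3, shared by ATP2B2 and ATP2A3, was that of 16.9% of all genes, and the order layer 3, layer 1, layer 2 of ATP2C2 that of 18.5%.

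Per kilobase, the pumps were among the more highly expressed genes of the uterus. In layers the mean RPKM was 188 ± 121 for ATP2C2, 179 ± 66.9 for ATP2B2 and 167 ± 183 for ATP2A3 (SD, n = 3), and no neighbours in this order differed beyond the spread between hens. In non-layers it was 86.3 ± 14.0 for ATP2C2, 39.3 ± 12.3 for ATP2B2 and 34.5 ± 0.735 for ATP2A3 (SD, n = 3). ATP2C2 was the highest pump in each of the 3 non-layers, and its lowest non-layer value of 70.1 RPKM lay above the highest of the other pumps, 50.9 RPKM for ATP2B2, whereas the ranges of ATP2B2 and ATP2A3 overlapped. Among all genes with a count in the same library, ATP2B2 stood above 95.9% to 98.0% of genes in layers and above 72.1% to 86.9% in non-layers. ATP2A3 stood above 82.1% to 98.6% of genes in layers and above 78.9% to 80.0% in non-layers, and ATP2C2 above 94.1% to 98.2% and above 91.2% to 94.3%. The gene lengths behind the RPKM values, obtained from the counts, were 4051 to 4053 bases for ATP2B2, 3878 for ATP2A3 and 2801 to 2802 for ATP2C2 in all libraries, so the ratios between pumps do not rest on a length that changed between hens.

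Added together, the 3 pumps reached 389, 723 and 492 RPKM in layers 1, 2 and 3, against 144, 180 and 156 RPKM in non-layers 1, 2 and 3. The sum was above every non-layer in each layer, with means of 535 ± 171 RPKM in layers and 160 ± 18.1 RPKM in non-layers (SD, n = 3 each), a 3.34-fold difference. The pumps were named through the authors' call of this contrast, so a higher sum in layers was to be found. The other genes of the calcium pump family are not in the sum. The highest layer was 1.86-fold above the lowest. This spread is narrower than that of ATP2A3 or ATP2C2 alone, but close to that of ATP2B2, at 133 to 256 RPKM in layers. ATP2A3 and ATP2C2 had their highest values in different hens, which by itself narrows the spread of a sum. The makeup of the sum differed from layer to layer. In layer 1, ATP2C2 made up 38.6%, ATP2B2 38.2% and ATP2A3 23.2%. In layer 2, ATP2A3 was the largest part with 52.1%, ahead of ATP2B2 with 35.4% and ATP2C2 with 12.5%. In layer 3, ATP2C2 made up 65.8%, ATP2B2 27.0% and ATP2A3 7.19%. The non-layers resembled each other more, with 48.6% to 60.8% from ATP2C2, 16.9% to 28.3% from ATP2B2 and 19.4% to 23.3% from ATP2A3. The share of ATP2B2 averaged 33.6% ± 5.83 in layers and 24.4% ± 6.55 in non-layers (SD, n = 3 each), and layer 3 with 27.0% lay inside the range of the non-layers.

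**Figure D3:**
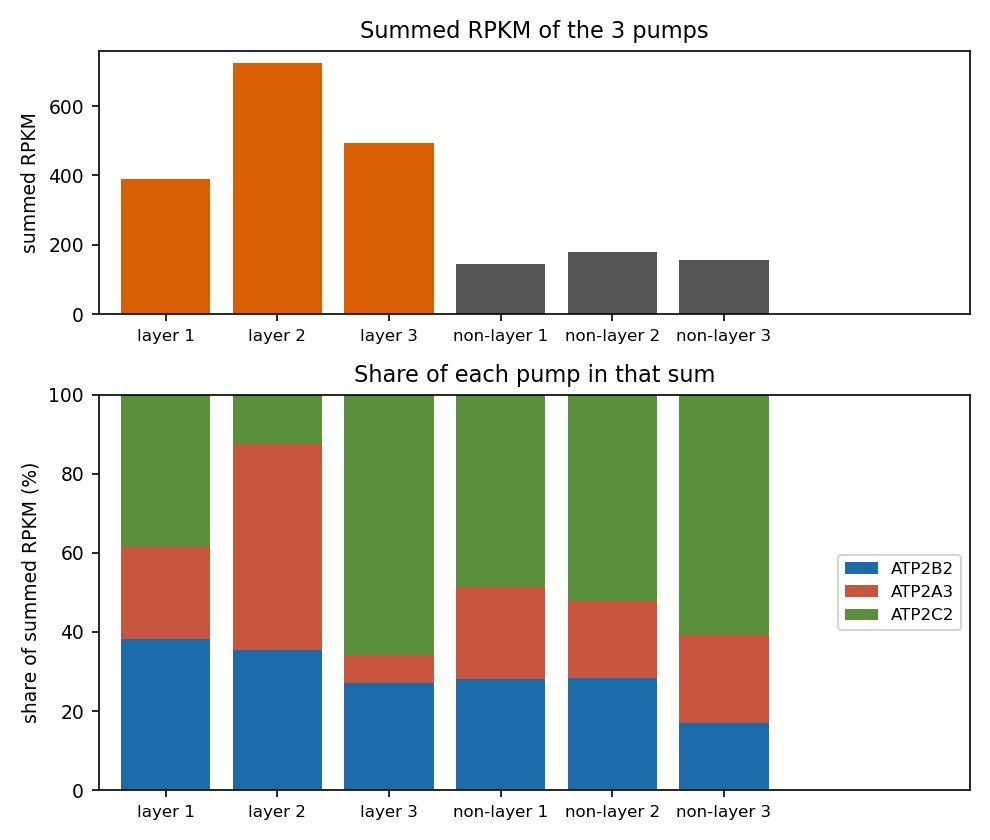
Summed RPKM of ATP2B2, ATP2A3 and ATP2C2 in each library (upper panel) and the share of each pump in that sum in percent (lower panel), layers left of non-layers. The sums are 389 to 723 RPKM in layers and 144 to 180 RPKM in non-layers; ATP2A3 is the largest part in layer 2 at 52.1%, and ATP2C2 in layer 3 at 65.8%.

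A ratio of 2 pumps within a library does not depend on how libraries were scaled to each other. ATP2A3 over ATP2C2 was 0.600, 4.17 and 0.109 in layers 1, 2 and 3, against 0.480, 0.373 and 0.367 in non-layers. Layers 1 and 2 were above all non-layers and layer 3 below all of them, so that the log2 ratio ranged over 5.25 among layers and over 0.39 among non-layers. ATP2B2 over ATP2A3 was 1.65, 0.680 and 3.76 in layers 1, 2 and 3, against 1.20, 1.46 and 0.756 in non-layers. ATP2B2 over ATP2C2 was 0.991, 2.84 and 0.411 in layers 1, 2 and 3, against 0.579, 0.543 and 0.278 in non-layers. For this last pair layers 1 and 2 were above every non-layer and layer 3 was inside their range. The mean log2 ratio of layers minus that of non-layers was 0.56 for ATP2B2 over ATP2A3 (two-sided exact permutation test, p = 0.5), 1.24 for ATP2B2 over ATP2C2 (exact p = 0.3) and 0.69 for ATP2A3 over ATP2C2 (exact p = 0.7). With 3 libraries per group the smallest p such a test can give is 0.1. Each of these 3 differences was below the SD among layers (1.23, 1.40 and 2.63, in the same order). Each was above the SD among non-layers (0.49, 0.59 and 0.22). The first changed sign without layer 3, to -0.05, and the last without layer 2, to -0.66. The difference of ATP2B2 over ATP2C2 was 0.53 without layer 2 and 1.92 without layer 3.

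**Figure D4:**
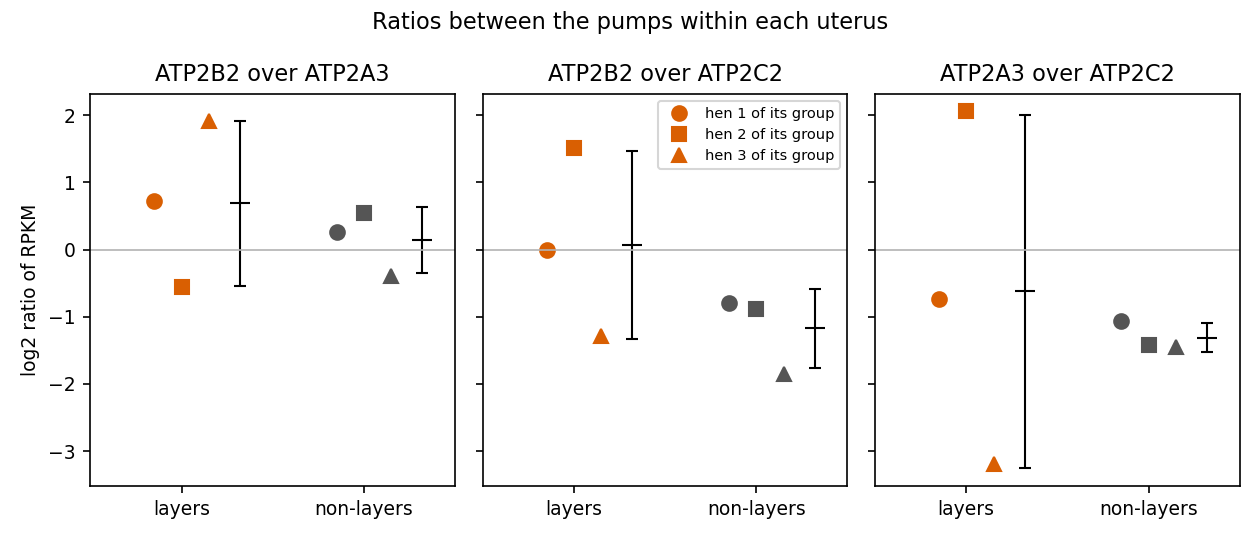
Log2 ratio of the RPKM values of each pair of pumps within each library, layers left of non-layers; each point is 1 hen, with marker shape for its number within its group, black bars are mean ± SD, and the grey line marks equal RPKM. The layers spread over 5.25 log2 units for ATP2A3 over ATP2C2 and the non-layers over 0.39, and the groups overlap for all 3 pairs.

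The genes most like each pump were sought by the root mean square difference between log2 CPM values over the 6 libraries, each gene centred on its own mean, among 13256 other genes; names were at hand only for genes in the authors' table. Nearest to ATP2B2 was ALDH1L2, a mitochondrial folate enzyme, at a difference of 0.193, with 49.1, 81.1 and 54.3 CPM in layers 1, 2 and 3 against 11.6, 15.4 and 9.39 CPM in non-layers. It was followed by the adenosine receptor ADORA2A at 0.268. The next named gene, at rank 4 of all genes, was EMB, a membrane glycoprotein that accompanies monocarboxylate transporters, at 0.300. For ATP2A3 the closest named gene was the receptor phosphatase PTPRT at 0.381 (rank 3). SAMD10 at 0.395 (rank 4) and ENDOUL at 0.449 (rank 6) were the next named genes. All of these had layer 2 as their highest library, and PTPRT and SAMD10 were expressed at no more than 8.62 and 6.05 CPM. For ATP2C2 the closest named genes were the transcription factor FOXO3 at 0.220 (rank 5) and the cyclin-dependent kinase inhibitor CDKN1B at 0.270 (rank 13). The tight junction protein cingulin, CGN, was the next at 0.311 (rank 21). FOXO3 had 127, 84.4 and 226 CPM in layers 1, 2 and 3 against 57.3, 56.1 and 49.2 CPM in non-layers, with the same order of layers as ATP2C2. The pumps themselves were farther apart, at 0.815 between ATP2B2 and ATP2A3, 1.07 between ATP2B2 and ATP2C2 and 1.56 between ATP2A3 and ATP2C2. Of the 13256 other genes, ATP2B2 was at rank 114 in nearness to ATP2A3, and ATP2A3 at rank 237 in nearness to ATP2B2. ATP2C2 was at rank 9364 for ATP2A3 and 1107 for ATP2B2, and from ATP2C2 the ranks were 9523 (ATP2B2) and 12440 (ATP2A3). These ranks include the difference between the groups by which the pumps were named.

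Other genes of calcium handling were taken from a list of 56 genes that bind, carry, release or signal through calcium, of which 3 had a name in the authors' table and were tested. Of these, 1 was called higher in layers and none lower by edgeR. Of all genes tested, edgeR called 0.901% higher in layers and 1.87% in either direction. The 3 list genes were named through the authors' call of this contrast, so nothing is read from this count. PLCB4, a phospholipase C that generates the signal for calcium release, was at 284, 268 and 234 CPM in layers 1, 2 and 3 against 124, 113 and 127 CPM in non-layers, and it was the gene called, with a log2 difference of 1.12 ± 0.15 (SE; edgeR, adjusted p = 0.030). Its highest layer was layer 1, and its 3 layers lay closer together than those of any of the pumps, whereas its non-layers were less close than those of ATP2A3. CAMK1D, a calmodulin-dependent kinase, was at 34.7, 50.9 and 24.3 CPM in layers against 15.4, 12.4 and 13.7 CPM in non-layers, with the same order of layers as ATP2B2 and ATP2A3, and missed the threshold (log2 fold change 1.40; edgeR, adjusted p = 0.055). STC2, a secreted glycoprotein hormone of the stanniocalcin family, was low, with 2.13, 5.08 and 3.71 CPM in layers against 1.34, 1.23 and 0.626 CPM in non-layers, and missed it too (log2 fold change 1.76; edgeR, adjusted p = 0.10). Of the 9 genes of the calcium pump family, the 6 others had no name in the authors' table of DEGs and were not analysed here. The 3 pumps described are thus the family members that were named through the authors' call. Of 10 markers of ciliated cells, TEKT1 alone had a name in the authors' table of DEGs. It was at 69.4, 51.6 and 31.1 CPM in layers 1, 2 and 3 against 123, 122 and 112 CPM in non-layers (log2 fold change -1.23, adjusted p = 0.070 by edgeR). TEKT1 was named through the authors' call of this contrast, so a difference was to be found in it, and the other ciliated cell markers were not analysed. The part of TEKT1 in the values of the pumps was not tested.

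**Figure D5:**
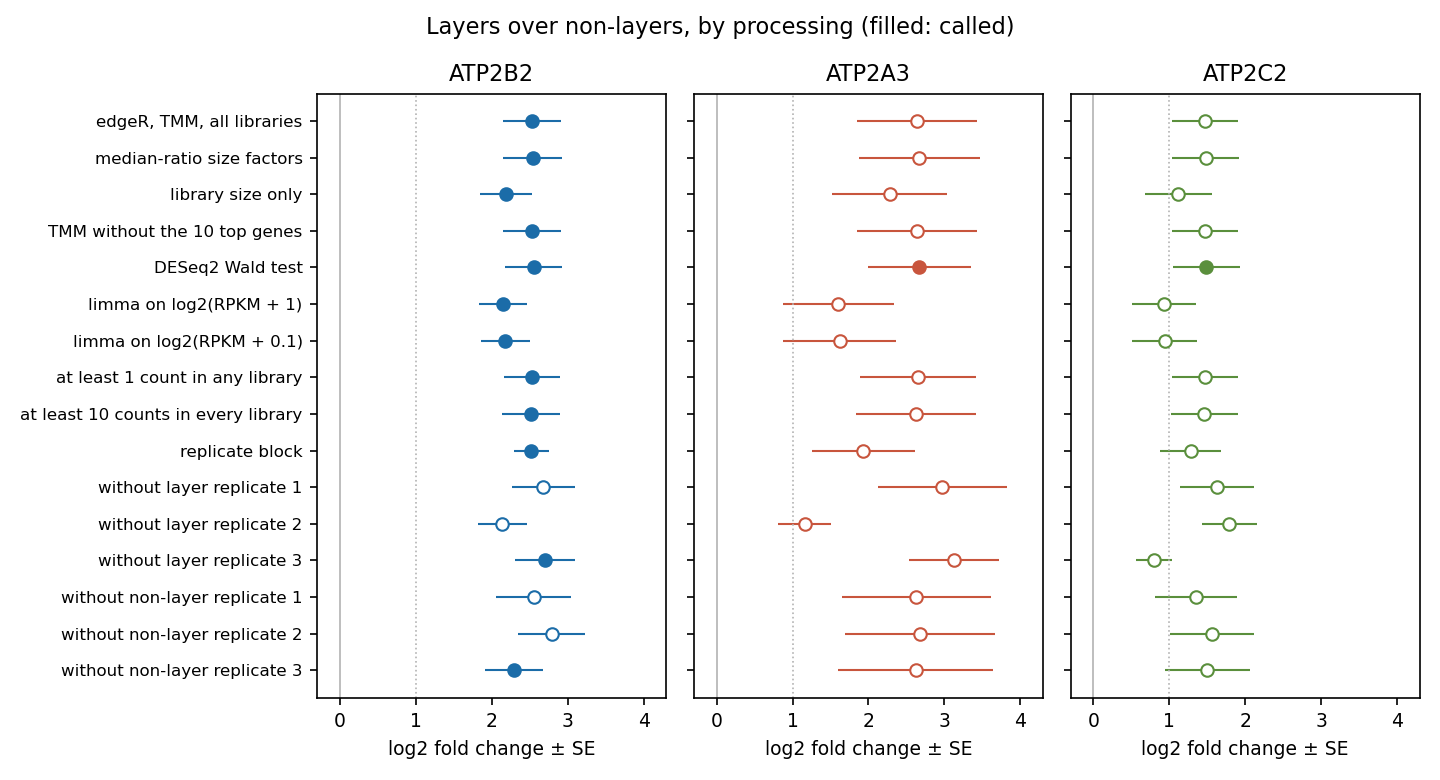
Log2 fold change ± standard error of each pump in layers over non-layers under each way of processing (rows), with filled points where the adjusted p was under 0.05 at a change of at least 2-fold; the grey lines mark no change and a 2-fold change. ATP2B2 stays between 2.14 and 2.79, ATP2A3 between 1.16 and 3.13, and ATP2C2 between 0.80 and 1.79, and the last 2 are filled with DESeq2 only.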

How the data were processed

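The authors made stranded libraries of poly-A RNA and trimmed the single-end reads in Prinseq before alignment in Array Studio (genome Galgal 5.0). They called their DEGs with DESeq2 in Array Studio, at a q-value below 0.05 and a change of at least 2-fold. They deposited estimated counts for each Ensembl gene, of which 91.6% were whole within 1e-06. The gene counter, its strand setting and the annotation release are not given in the sources used here. The deposited RPKM values use, for genes with 1 transcript, the listed exon length and the library's total gene count (checked to within 0.0083%). The gene starts, ends and exon lengths, deposited by the authors in the other table, were used with gene names; its fold changes, p-values, q-values and group means were not.

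Counts were rounded to whole numbers and compared with edgeR 4.0.16 in R 4.3.3 (filterByExpr, TMM, quasi-likelihood test, no covariates, all 6 libraries; 13317 genes tested). A call needed a Benjamini-Hochberg adjusted p below 0.05 with a change of 2-fold or more. Standard errors are the log2 fold change over the square root of F. DESeq2 1.42.0 and limma 3.58.1 were alternatives, with other scalings and filters, the replicate number as a block, and each library left out. Ratios used a two-sided exact permutation test over hens. Python 3.11.15 with scipy 1.17.1 was used elsewhere.

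The genes named are the pumps, named members of the calcium and cell type lists, and the 3 named genes nearest to each pump. Members and lists were chosen with earlier results of these data known. The RefSeq table matched 0 of the Ensembl identifiers.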

Additional observations from a re-analysis of the deposited data

How the results depend on the processing

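The direction of all 3 pumps held under each of the 15 alternatives. On the CPM scale every layer lay above every non-layer for each pump, so leaving out a library could hardly reverse it. The alternatives reuse the same libraries, and several differ little from the edgeR fit with all libraries, so they are no separate support. The call of ATP2B2 held under 11 alternatives, with DESeq2's Wald test and the replicate block among them. ATP2A3 and ATP2C2 were called in 1 alternative, DESeq2's Wald test, with log2 fold changes of 2.67 and 1.49. DESeq2 was also the method by which the authors had called their DEGs. Over the 6 fits that leave out 1 library, the log2 fold change ranged from 2.14 to 2.79 for ATP2B2, where the call was lost in 4 of 6 fits, from 1.16 to 3.13 for ATP2A3 and from 0.80 to 1.79 for ATP2C2. The fits that lost the call of ATP2B2 called 0 to 41 genes in all, and those that kept it called 273 and 274. With 1 library left out, the differences in log2 ratio ranged from -0.05 to 1.18 for ATP2B2 over ATP2A3 and from 0.53 to 1.92 for ATP2B2 over ATP2C2. For ATP2A3 over ATP2C2 they ranged from -0.66 to 1.97, and the causes of these changes were not tested. By RPKM with limma, where the median of all genes was -0.30 or -0.34, ATP2B2 was at 2.15 or 2.18, ATP2A3 at 1.60 or 1.62 and ATP2C2 at 0.93 or 0.94.

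Over all genes, 249 were called (120 higher and 129 lower in layers), against 781 with library size only (103 and 678), 928 with DESeq2, 604 with limma on log2(RPKM + 1) (86 and 518) and 662 with log2(RPKM + 0.1) (90 and 572). With a library left out the number ranged from 0, without non-layer 1, where 1704 genes had an unadjusted p under 0.05 by edgeR, to 274, without non-layer 3. No pairing of hens by replicate number was given in the sources used here. Deviations of same-numbered libraries correlated at -0.14, 0.11 and -0.064 over genes, and those of differently numbered libraries at -0.14 to 0.19. With so few libraries these values cannot show whether a batch was shared. With the replicate block 21 genes were called, and the log2 fold changes were 2.52 for ATP2B2 (adjusted p = 0.049 by edgeR), 1.93 for ATP2A3 and 1.28 for ATP2C2.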
